A study of Mus musculus with 24 samples.

Results

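The genes described here encode the proteins of the cytosolic ribosome. They were taken by name from both count tables: every symbol made of Rpl or Rps and a number, with or without a final a or x, together with Rplp0, Rplp1, Rplp2 and Rpsa. The rule found 76 genes of 24062, 46 for proteins of the large subunit and 30 for the small subunit, and it used no measured value. Rpl3l, a muscle paralogue of Rpl3, was followed beside them. Polyadenylated RNA of mouse quadriceps was sequenced from 24 mice with a C57BL/6 background, each giving 1 library; the mice formed 9 groups. The delEx44 mice lack exon 44 of Dmd, the dystrophin gene, and model Duchenne muscular dystrophy, and WT mice are the controls. Corrected mice were delEx44 mice that received AAV9 vectors for a guide RNA and for SpCas9 by intraperitoneal injection on postnatal day 4, so they carry the deletion as well. Each genotype had 3 sedentary mice at 4 weeks, 2 mice at 8 weeks that had run downhill for 1 month (12 m per min, 15 degree decline, every other day) and 3 sedentary mice at 18 months. The vector doses were 8e13 vg per kg each in the younger mice, and 2.5e14 (guide RNA) and 5e13 (SpCas9) vg per kg in the 18-month mice, whose guide RNA vector was single-stranded and not self-complementary. The deletion is germline, while the correction reaches only cells that took up vector, in a muscle that also holds immune, stromal and vascular cells.

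The ribosome carries out translation. Each of its proteins is present in 1 copy per ribosome apart from the acidic stalk proteins Rplp1 and Rplp2, and cells make the proteins in matched amounts. Their mRNAs start with a cytosine and a run of pyrimidines, the terminal oligopyrimidine (TOP) motif, through which mTORC1 and the RNA-binding protein LARP1 control their translation. In striated muscle Rpl3l can take the place of Rpl3, and Rpl3 is known to be induced when muscle is injured or made to grow. Some members have roles of their own: the Rpl5 and Rpl11 proteins bind and inhibit Mdm2, Rps6 is phosphorylated by S6 kinase, and Rps19 and Rpl11 are mutated in Diamond-Blackfan anaemia.

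The start of transcription is where the TOP motif lies, so the windows from 10 bases before to 20 bases after the start are shown for 6 members described below. These 6 were picked as members with a run of at least 5 pyrimidines over the start. Other members described below, such as Rpl41, Rps19 and Rpl11, had no pyrimidine at an annotated start. Capitals mark the pyrimidine run that spans the start. The sequences are those of RefSeq on GRCm38.p6, 5′ to 3′ on the coding strand.
Rps6, chr4:86857348-86857377, minus strand: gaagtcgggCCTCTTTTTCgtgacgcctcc
Rplp2, chr7:141447641-141447670, plus strand: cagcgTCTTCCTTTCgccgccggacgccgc
Rpl38, chr11:114668570-114668599, plus strand: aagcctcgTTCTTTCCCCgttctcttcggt
Rps10, chr17:27635225-27635254, minus strand: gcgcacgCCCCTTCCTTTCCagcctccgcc
Rps18, chr17:33955646-33955675, minus strand: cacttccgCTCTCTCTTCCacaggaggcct
Rpl15, chr14:18270967-18270996, minus strand: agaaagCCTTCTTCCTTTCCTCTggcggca
RefSeq entries were found for 56 members with 66 starts, and a run of at least 5 pyrimidines spanned 30.3% of these starts against 10.1% of all 32851 starts. The Ets motif CCGGAAG, on either strand of the 250 bases before the start, was present at 27.3% of member starts and at 6.91% of all. GGGCGG, the GC-box, was present at 48.5% against 32.7%, TATAAA at 4.55% against 12.4% and CAGCTG, an E-box of the kind that myogenic factors bind, at 3.03% against 13.0%. These are matches of letters in the annotation and not measured sites.

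Rpl3l, the muscle paralogue, is shown with the 250 bases before its start beside Rps6, because the promoters differ in these motifs. Capitals mark CAGCTG in Rpl3l and CCGGAAG in Rps6.
Rpl3l, chr17:24727576-24727825, plus strand: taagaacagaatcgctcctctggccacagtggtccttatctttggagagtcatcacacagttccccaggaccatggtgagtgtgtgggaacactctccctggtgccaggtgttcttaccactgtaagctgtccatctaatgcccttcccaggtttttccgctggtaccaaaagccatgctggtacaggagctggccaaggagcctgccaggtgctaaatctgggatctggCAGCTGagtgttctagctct
Rps6, chr4:86857368-86857617, minus strand: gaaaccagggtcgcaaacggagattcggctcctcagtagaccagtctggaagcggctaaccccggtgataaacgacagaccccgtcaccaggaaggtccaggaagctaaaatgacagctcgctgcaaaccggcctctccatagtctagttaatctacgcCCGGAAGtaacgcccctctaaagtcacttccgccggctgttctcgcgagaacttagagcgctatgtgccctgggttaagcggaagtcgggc

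Counts in genes per library ran from 30552867 to 38090522 in the table of the younger mice, called the first table here, and from 23125930 to 31254175 in that of the 18-month mice. Dmd stood at 204 to 240 CPM in WT, 36.1 to 41.8 in delEx44 and 155 to 172 in corrected muscle at 4 weeks, with the same order and no overlap in the run and 18-month groups. CPM are counts set to a common library total after TMM scaling, which takes a trimmed mean of gene ratios. TMM factors were 1.051 to 1.235 in delEx44 libraries and 0.872 to 1.011 in WT and corrected libraries, so the scaling itself differs between genotypes. Without it the median log2 fold change of all genes in delEx44 against WT was 0.393 at 4 weeks, 0.122 after running and 0.354 at 18 months. With it these medians were -0.004, -0.012 and 0.048. The log2 fold changes below are relative to TMM. Fibre genes were present in all libraries and the haemoglobin genes Hba-a1 and Hbb-bs were at 0. WT replicate 3 at 4 weeks stood apart in erythroid and neutrophil genes, which summed to 240 CPM against 3.84 and 7.26 in the other 2.

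Of the 76 members, 72 were measured above 1 CPM in every group. Rpl26 had no count in any library, and Rpl30, Rpl34 and Rps27 stayed below 1 CPM in each group mean. Rps27, which encodes a zinc-binding protein of the small subunit, was measured at 0.189 to 0.606 CPM across all 24 libraries. Of all 50-base windows of the Rps27 transcript 98.6% also occur in transcripts of other genes, and the share was 79.2% for Rpl30, 61.0% for Rpl26 and 37.9% for Rpl34. Ribosomal protein genes have many processed copies in the genome, and 12.9% to 22.4% of the records per library were alignments that were not unique and counted for no gene. The level of a member is therefore that of its countable reads; the median member shared 51.6% of its windows.

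In WT muscle at 4 weeks the median member stood at 120 CPM. Per kilobase of transcript the median was 141 CPM and the highest member was Rplp1, at 862 CPM per kb. Rpl4, a large-subunit protein of the exit tunnel, had the highest level per gene at 690 CPM. At 18 months Rpl4 was also highest per kilobase, at 416 in WT, 370 in delEx44 and 407 in corrected muscle.

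The 76 genes together held 0.864%, 1.00% and 1.03% of all gene counts in the 3 WT libraries at 4 weeks. The share was 1.63%, 1.35% and 1.45% in delEx44, with 1.02%, 0.983% and 0.937% in corrected muscle. The delEx44 libraries lay above both other groups without overlap, and the corrected libraries lay within the WT range. After running the share was 1.05% and 1.00% in WT, 1.3% and 1.21% in delEx44, with 1.17% and 1.13% in corrected muscle, an order without overlap. At 18 months it was 0.768%, 0.815% and 0.756% in WT, 1.07%, 0.968% and 1.02% in delEx44, with 0.805%, 0.775% and 0.823% in corrected muscle. Again delEx44 was apart from the others, and corrected overlapped WT. These shares use no TMM factor. With it, the summed level at 4 weeks was 10740 CPM in WT, 12460 in delEx44 and 10350 in corrected muscle, and 8429, 8937 and 8467 at 18 months. In bulk RNA such as this, fewer cells of a type and less RNA per cell cannot be told apart.

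**Figure D1:**
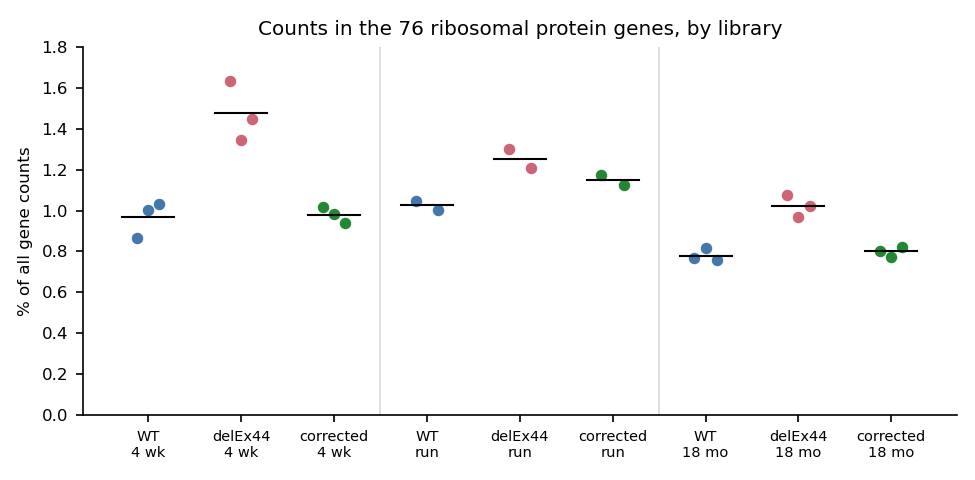
Share of all gene counts held by the 76 ribosomal protein genes, in percent, for each library (points) with the group mean (bars), by genotype and stage. The delEx44 libraries lie between 0.968% and 1.63% and above the WT libraries of their own stage.

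At 4 weeks the ribosomal protein genes were higher in delEx44 than in WT muscle as a broad set, by modest amounts. Of 74 members tested 46 rose and none fell, at a median log2 fold change of 0.23. Of all 15013 genes 25.2% rose and 25.0% fell, at a median of -0.004. Among the members 71 had a positive fold change and 53 had an unadjusted p under 0.05. In 39 members every delEx44 library lay above every WT library, against 29.9% of all genes, and in none below, against 28.7%. Both subunits took part: 26 of 44 large-subunit members tested rose, at a median of 0.22, and 20 of 30 small-subunit members, at a median of 0.25. The count was 27 without WT replicate 1 and 26 without delEx44 replicate 1. It was 50 without WT replicate 3, the 4-week library with the highest sum of erythroid and neutrophil genes.

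Rpl41, the smallest ribosomal protein, stood at 110, 133 and 132 CPM in WT, 194, 175 and 187 in delEx44, with 122, 118 and 121 in corrected muscle. All delEx44 libraries were above all others, and the rise over WT was 0.57 ± 0.08 (log2 ± SE; adjusted p = 6.2e-05, edgeR's quasi-likelihood test). Rpl39, which lines the exit tunnel, was at 32.4, 33.5 and 34.7 CPM in WT, 53.5, 43.6 and 50.1 in delEx44, with 34.5, 32.1 and 33.3 in corrected muscle, and rose by 0.55. Rpl13a, also known from the GAIT complex that silences inflammatory mRNAs, was at 169, 190 and 194 CPM in WT, 298, 233 and 275 in delEx44, with 193, 194 and 181 in corrected muscle. Its rise of 0.55 again came with no overlap between delEx44 and the rest.

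Rps10, a protein of the small-subunit head, led the small subunit, at 30.6, 33.8 and 36.1 CPM in WT, 53.2, 43.4 and 49.3 in delEx44, with 38.7, 34.0 and 34.4 in corrected muscle. Its fold change over WT was 0.54 (adjusted p = 0.00036 by edgeR's test). Rps19, needed to mature the small subunit, was at 61.6, 66.1 and 71.2 CPM in WT, 96.7, 81.7 and 92.7 in delEx44, with 66.2, 64.0 and 63.2 in corrected muscle, a rise of 0.45. For both genes the WT and corrected ranges overlapped and delEx44 lay above them. Rps18 rose by 0.39, Rpl36a by 0.36, Rpl38 by 0.36 and Rps4x, the X-linked member of the Rps4 pair, by 0.31. Of the Mdm2-binding pair, Rpl11 rose by 0.35 (adjusted p = 0.0028) while Rpl5 had a fold change of 0.10 (adjusted p = 0.34).

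The stalk and several core proteins of the large subunit did not pass the test. Rplp0, the stalk base, stood at 470, 524 and 524 CPM in WT, 544, 491 and 531 in delEx44, with 513, 496 and 504 in corrected muscle, so the 3 groups overlapped. Its fold change in delEx44 was 0.05, with 0.15 for Rplp1 (adjusted p = 0.15) and 0.26 for Rplp2 (adjusted p = 0.054). Rps6, the S6 kinase substrate, had 0.16 (adjusted p = 0.081), Rpl7 0.19 (adjusted p = 0.064), Rpl4 -0.04 and Rpl15 -0.02. Rpsa, the laminin receptor homologue of the small subunit, rose by 0.22 and Rpl22 by 0.22. The lowest value was that of Rps2, which stood at 285, 319 and 316 CPM in WT and 278, 269 and 285 in delEx44, a fold change of -0.14 (adjusted p = 0.065). Rps2 overlapped between the genotypes by a single delEx44 library, and 71.3% of its windows occur in other transcripts.

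In corrected muscle at 4 weeks the set was lower than in delEx44 muscle. Of the 74 members 56 fell and none rose, against 24.2% and 22.1% of all genes, at a median of -0.29. The count included 31 large-subunit and 25 small-subunit members. In 62 members every corrected library lay below every delEx44 library (30.4% of all genes) and in 1 above (28.3%). This comparison shares its delEx44 libraries with that of delEx44 and WT, so the pair of results is not independent. Rpl41 fell by 0.63 on the log2 scale (adjusted p = 4.3e-05), Rpl39 fell by 0.56, Rps18 by 0.51, Rpl13a by 0.51 and Rps19 by 0.49. Rps6 fell by 0.31 and Rpl7 by 0.29. Rplp0 was at -0.05, Rps2 at 0.09, Rpl4 at -0.07 and Rpl15 at -0.02, none past the threshold. Rplp1 was at -0.21 (adjusted p = 0.05) and Rplp2 at -0.23 (adjusted p = 0.094).

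**Figure D2:**
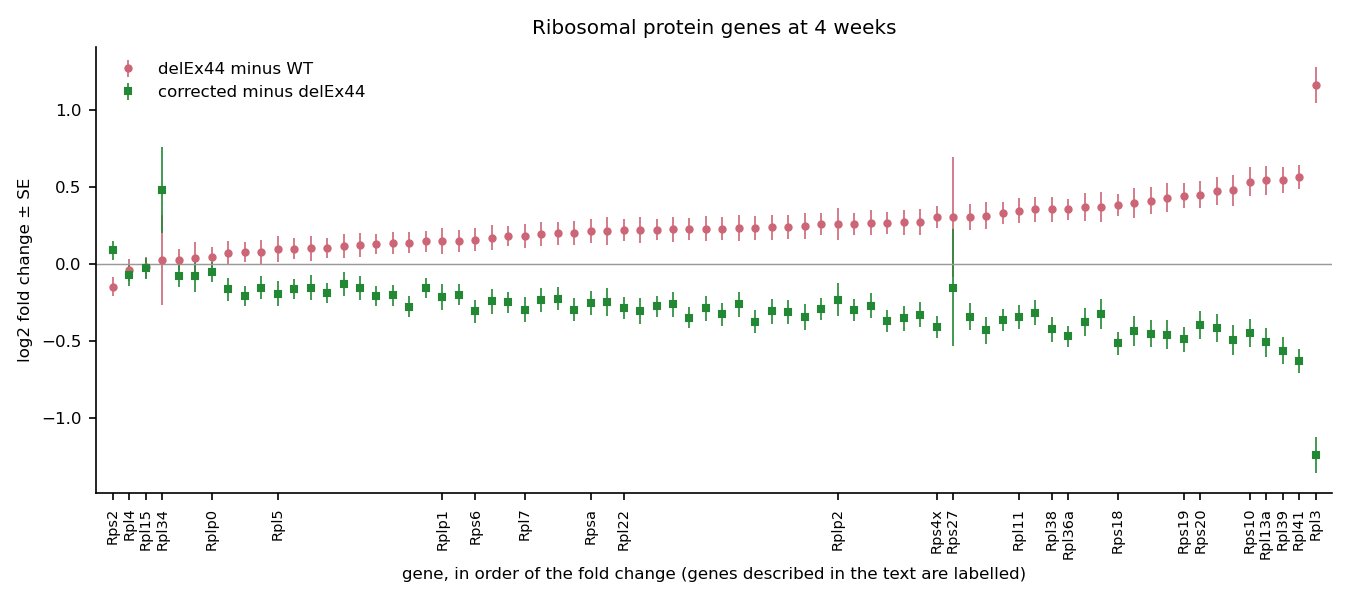
Log2 fold change ± SE of the 74 ribosomal protein genes tested at 4 weeks, ordered by their value in delEx44 against WT (circles), with corrected against delEx44 (squares); both comparisons use the same delEx44 libraries, and the genes described in the text are labelled. Rpl3 stands at 1.17 and -1.24, the next gene in order, Rpl41, at 0.57 and -0.63, and Rps2 is at the other end.

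Between corrected and WT muscle at 4 weeks no member passed the test in edgeR's quasi-likelihood fit. Nor did any of the 15013 genes (0% higher and 0% lower), although 1497 genes had an unadjusted p under 0.05; among the members that number was 0. DESeq2 also called 0 members. The members' median was -0.05 and 11 of 74 were positive. In 1 member all corrected libraries lay above all WT libraries (8.11% of all genes) and in 3 below (7.33%). The widest values among well-measured members were -0.14 for Rps6 and 0.09 for Rps10.

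Rpl3, which reaches near the peptidyl transferase centre, had the largest fold change of all members in delEx44 against WT at each stage. It is encoded at chr15:80077791-80091868 (GRCm38, minus strand), and 85.6% of its windows are shared with transcripts of 26 other genes, so its level is that of a part of its reads. At 4 weeks Rpl3 stood at 54.0, 66.8 and 73.3 CPM in WT, 163, 129 and 143 in delEx44, with 64.0, 65.9 and 54.5 in corrected muscle. The delEx44 libraries lay well above all others, which overlapped. The log2 fold change was 1.17 ± 0.12 in delEx44 against WT (adjusted p = 6e-06) and -1.24 ± 0.12 in corrected against delEx44 (adjusted p = 7.7e-06). Corrected against WT gave -0.07 (adjusted p = 0.88), a value whose sign changed when WT replicate 3 (0.03) or corrected replicate 3 (0.01) was left out.

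After running Rpl3 was at 53.5 and 46.2 CPM in WT, 94.9 and 92.9 in delEx44, with 56.8 and 57.2 in corrected muscle. The delEx44 mice were again above the rest, and the corrected mice just above WT. Rpl3 differed by 0.91 ± 0.14 in delEx44 against WT (adjusted p = 0.00058) and by -0.72 ± 0.14 in corrected against delEx44 (adjusted p = 0.0035). At 18 months Rpl3 was at 58.9, 59.3 and 54.2 CPM in WT, 143, 118 and 128 in delEx44, with 78.1, 64.9 and 79.6 in corrected muscle. Here the 3 genotypes did not overlap, and corrected mice lay between the other 2. The fold changes at 18 months were 1.17 ± 0.10 (adjusted p = 1.5e-05) and -0.80 ± 0.09 (adjusted p = 0.00016). Corrected against WT gave 0.37 ± 0.09 with an adjusted p of 0.054, which passed without corrected replicate 2 (0.46, adjusted p = 0.0037) and with DESeq2 (adjusted p = 0.012). That replicate had the lowest Rpl3 of the corrected mice, 64.9 CPM, and differed from the others in several marker sums. Its macrophage sum was the lowest, 354 CPM against 799 and 1030, as was its sum of regenerating fibre genes, 173 against 291 and 218. Its slow fibre sum was the highest, 1204 CPM against 14.3 and 250. Which of these, if any, goes with Rpl3 was not tested.

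Rpl3l, at chr17:24727820-24736143 on the plus strand, shares none of its windows with other transcripts and went the opposite way. At 4 weeks Rpl3l stood at 525, 490 and 474 CPM in WT, 256, 277 and 297 in delEx44, with 443, 459 and 498 in corrected muscle. It fell by 0.84 on the log2 scale in delEx44 (SE 0.09, adjusted p = 8.7e-06) and rose by 0.75 in corrected against delEx44 (SE 0.09, adjusted p = 3.1e-05). The delEx44 libraries were far below the others, which overlapped. At 18 months Rpl3l was at 420, 406 and 383 CPM in WT, 218, 274 and 258 in delEx44, with 391, 399 and 384 in corrected muscle, with fold changes of -0.69 (adjusted p = 0.00014) and 0.64 (adjusted p = 0.00032). Corrected against WT was -0.09 at 4 weeks and -0.04 at 18 months, neither past the threshold.

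After running Rpl3l was at 510 and 552 CPM in WT, 485 and 424 in delEx44, with 644 and 546 in corrected muscle. Rpl3l was lower in both delEx44 mice than in WT, but the fold change of -0.22 did not pass (adjusted p = 0.14). The rise in corrected against delEx44, 0.39 ± 0.11 (adjusted p = 0.021), was lost without delEx44 replicate 2 (0.29, adjusted p = 0.15), without corrected replicate 1 (0.27, adjusted p = 0.21) and with only the 2 groups in the fit (adjusted p = 0.13). Within delEx44 mice Rpl3l was 0.72 higher in the run group than at 4 weeks (adjusted p = 0.00021), and Rpl3 fell by 0.63 (adjusted p = 0.0026). The interaction of running with the delEx44 difference was 0.62 ± 0.14 for Rpl3l, with an adjusted p of 0.057; it passed with DESeq2 (adjusted p = 0.0014), upper-quartile factors (0.044) and a length correction (0.04). For Rpl3 the interaction was -0.25 (adjusted p = 0.49).

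Per kilobase of the whole transcript, countable reads of Rpl3l exceeded those of Rpl3 in every library. Rpl3 shares 85.6% of its windows with other transcripts and Rpl3l shares none. No correction was made for this, so the ratio can overstate Rpl3l, and which gene has the higher true level was not tested. The ratio was 9.56, 7.22 and 6.36 in WT at 4 weeks, 1.54, 2.11 and 2.04 in delEx44, with 6.80, 6.85 and 8.99 in corrected muscle. It was 9.36 and 11.7 in WT, 5.03 and 4.49 in delEx44, with 11.1 and 9.39 in corrected mice after running. At 18 months the ratio was 7.01, 6.72 and 6.94 in WT, 1.5, 2.28 and 1.99 in delEx44, with 4.92, 6.04 and 4.73 in corrected muscle. The ratio in delEx44 thus lay below that of every WT and corrected library of the same stage, and at 18 months all corrected libraries also lay below WT.

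**Figure D3:**
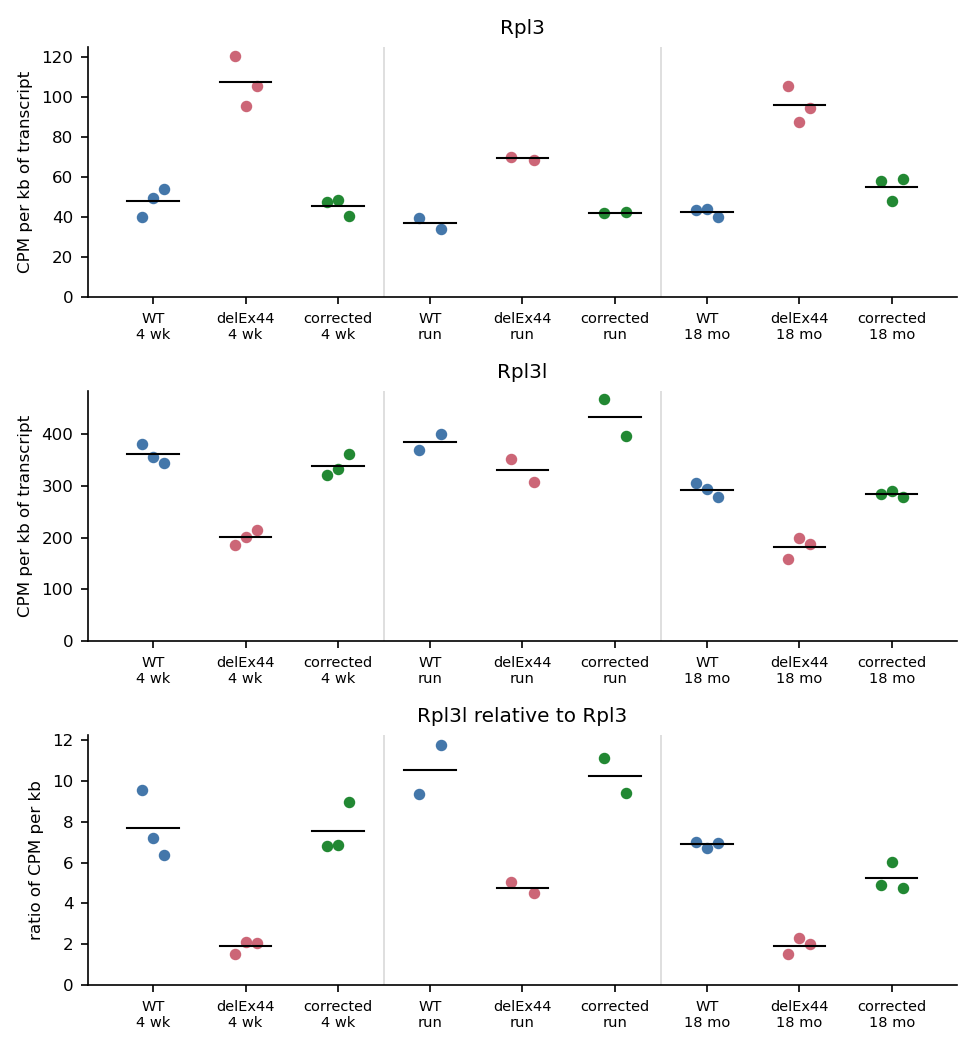
Rpl3 and Rpl3l in CPM per kilobase of transcript and the ratio of Rpl3l to Rpl3, for each library (points) with the group mean (bars). In sedentary delEx44 mice the ratio is 1.5 to 2.28, and in run delEx44 mice 4.49 and 5.03. The ratio is not corrected for windows shared with other transcripts, which Rpl3 has and Rpl3l lacks.

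Markers of other cell types and of fibre states also differed between the groups, not always in step with the members. Of 10 macrophage genes 9 rose in delEx44 against WT at each stage, and their summed level at 4 weeks was 359 to 413 CPM in WT, 1510 to 2088 in delEx44 and 549 to 733 in corrected muscle. Of 8 cell cycle genes 7 rose at 4 weeks, with sums of 62.3 to 142 CPM in WT and 192 to 219 in delEx44. Of 10 genes of regenerating fibres and myoblasts 8 rose at 4 weeks and 1, the cardiac actin gene Actc1, fell by 1.20 on the log2 scale. Their sum went down with Actc1, from 6600 to 7787 CPM in WT to 3424 to 4075 in delEx44, while at 18 months it was 72.8 to 76.4 in WT and 446 to 485 in delEx44. Of 8 fast fibre genes 7 fell at 4 weeks and 6 at 18 months, and 0 after running; the sums were 176900 to 193800 CPM in WT and 83710 to 107400 in delEx44 at 4 weeks. In corrected against delEx44 at 4 weeks 9 of the macrophage genes and 8 of the cell cycle genes fell. In the same comparison at 18 months 0 macrophage genes fell and 1 rose, and 0 cell cycle genes passed either way, with 3 and 1 at an unadjusted p under 0.05. The corrected mice at 18 months spread widely in macrophage genes, which summed to 799 CPM in replicate 1, 354 in replicate 2 and 1030 in replicate 3, beside 311 to 405 in WT and 958 to 1035 in delEx44. None of the macrophage genes was at 0 in any group. The part of these cell types in the ribosomal protein differences was not tested.

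After 1 month of running the members were again mostly higher in delEx44 than in WT, but few passed with 2 mice per group. Of 74 members 12 rose and none fell, against 14.9% and 14.2% of all genes, at a median of 0.15, and 71 were positive. In 59 members both delEx44 libraries lay above both WT libraries (31.1% of all genes), and in none below (32.6%). The count rested on each mouse: it was 3 without WT replicate 1, 2 without WT replicate 2, 2 without delEx44 replicate 1 and 7 without delEx44 replicate 2. A fit of the 2 groups alone gave 3, and one with a correction for transcript length 23. After Rpl3 the largest rise was that of Rpl10, an X-linked protein needed for joining the subunits, at 122 and 122 CPM in WT, 169 and 168 in delEx44, with 155 and 123 in corrected muscle. Rpl10 rose by 0.47 ± 0.11 over WT (adjusted p = 0.0073), and in corrected mice its 2 libraries spread over most of the interval between the other genotypes. Rpl19 and Rpl41 rose by 0.27 and 0.31. Rpl39 rose by 0.32, Rpl13a by 0.33, Rpl11 by 0.28 and Rps4x by 0.26. The stalk genes again did not pass, at 0.13 for Rplp0, 0.05 for Rplp1 and 0.08 for Rplp2.

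After running, corrected and delEx44 mice differed in 1 member by the test. Rpl3 fell and 0 members rose, against 12.4% and 10.8% of all genes; the median was -0.01 and 32 members were positive. The sign of this median rested on single mice: it was -0.09 without corrected replicate 1, 0.06 without corrected replicate 3, -0.05 without delEx44 replicate 2 and 0.04 without delEx44 replicate 1. In 3 members both corrected libraries were above both delEx44 libraries (30.7% of all genes) and in 10 below (31.0%). At an unadjusted p under 0.05 there were 3 members, DESeq2 called 2, and 2 were called without corrected replicate 1. With a correction for transcript length 9 members fell, at a median of -0.13, and 942 other genes with transcripts under 1000 bases had a median of 0.17 without it. Rpl41 stood at 139 and 124 CPM in delEx44, with 124 and 116 in corrected muscle, and Rps20 at 163 and 144 against 193 and 160. The Rpl41 groups did not overlap and those of Rps20 did.

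Against WT, corrected mice after running had 73 of 74 members positive at a median of 0.14, which was 0.05 without corrected replicate 1 and 0.24 without corrected replicate 3. Of the members 0 passed edgeR's quasi-likelihood test in either direction (0.00666% of genes higher and 0.0133% lower). The number at an unadjusted p under 0.05 was 10, and DESeq2 called 0. In 62 members both corrected libraries lay above both WT libraries (19.0% of all genes), and in none below (20.5%). Genes under 1000 bases had a median of 0.11 in this comparison, and with the length correction the members' median was 0.06. Rpl39, for example, was at 44.6 and 39.9 CPM in WT and 53.9 and 49.6 in corrected muscle, a fold change of 0.29 (adjusted p = 0.42).

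At 18 months the set was mixed. In delEx44 against WT 19 of 73 members rose and 4 fell, against 28.8% and 23.8% of all genes. The median was 0.10 beside 0.05 for all genes, and 56 members were positive. In 28 members delEx44 lay above WT without overlap (36.3% of all genes) and in 7 below (29.8%). The large subunit had 10 higher and 3 lower of 43, the small subunit 9 and 1 of 30. The share of the 2 directions depended on the scaling: 10 rose and 6 fell with DESeq2 size factors, 12 and 6 with DESeq2 itself, and 66 and 0 with library totals alone. The count of calls in either direction fell from 23 to 10 without WT replicate 2, 13 without WT replicate 3, 10 without delEx44 replicate 1 and 9 without delEx44 replicate 3.

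After Rpl3, the largest rises at 18 months were those of Rps19, Rpl19 and Rpl41. Rps19 stood at 32.5, 32.1 and 29.5 CPM in WT, 39.6, 37.6 and 40.8 in delEx44, with 30.1, 33.8 and 31.6 in corrected muscle, a rise of 0.32 (adjusted p = 0.0031). Rpl19 was at 97.6, 96.5 and 93.2 CPM in WT, 121, 118 and 119 in delEx44, with 107, 97.4 and 94.0 in corrected muscle, and rose by 0.31. In both genes WT and corrected libraries overlapped, and delEx44 was above all of them. Rpl41 rose by 0.31, Rps10 by 0.28, Rpl11 by 0.23, Rps4x by 0.23, Rpl13a by 0.20 and Rps6 by 0.18 (adjusted p = 0.046). Of 16 alternatives, the rise of Rps6 no longer passed in 12, that of Rps4x in 6, Rpl13a in 5 and Rpl11 in 1.

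The 4 members that fell in delEx44 at 18 months included Rpl15, Rpl24 and Rpl4. Rpl15, a large-subunit protein whose start is shown above, was at 91.3, 93.9 and 101 CPM in WT, 80.2, 79.0 and 84.3 in delEx44, with 101, 99.2 and 99.5 in corrected muscle, with no overlap of delEx44 and the others. It fell by 0.24 on the log2 scale in delEx44 (adjusted p = 0.0079) and rose by 0.30 in corrected against delEx44 (adjusted p = 0.0029). Rpl4 was at 646, 635 and 637 CPM in WT, 566, 564 and 578 in delEx44, with 645, 620 and 614 in corrected muscle; it fell by 0.17 (adjusted p = 0.032), and corrected against delEx44 was 0.14 (adjusted p = 0.082). Rpl24 fell by 0.21. With library totals alone the fold changes of Rpl15, Rpl4 and Rpl24 had the other sign, at 0.07, 0.14 and 0.09.

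In corrected against delEx44 muscle at 18 months 16 of 73 members fell and 1, Rpl15, rose, against 21.4% and 19.6% of all genes, at a median of -0.09. In 27 members corrected lay below delEx44 without overlap (28.4% of all genes) and in 2 above (25.5%). The count of calls fell from 17 to 9 without delEx44 replicate 1, 10 without delEx44 replicate 3 and 9 without corrected replicate 3, and a length correction gave 7 lower and 3 higher. After Rpl3 the largest was Rps28, at 25.1, 26.9 and 22.9 CPM in delEx44, with 19.5, 19.7 and 20.0 in corrected muscle, which fell by 0.34 (adjusted p = 0.017). Rpl41 fell by 0.31, Rps10 by 0.30, Rps19 by 0.30, Rps16 by 0.27 and Rplp0 by 0.24. Rplp0 stood at 340, 299 and 287 CPM in WT, 345, 354 and 349 in delEx44, with 292, 301 and 296 in corrected muscle, so only the first WT library came near delEx44. Between corrected and WT muscle no member passed edgeR's test (2.34% of genes higher and 2.43% lower); 5 had an unadjusted p of less than 0.05, DESeq2 called 5, and 2 were called without corrected replicate 2. The median was -0.01; 7 members lay above WT without overlap (12.0% of all genes) and 7 below (12.9%).

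Across the 3 stages, 7 members rose in delEx44 against WT each time: Rpl3, Rpl11, Rpl13a, Rpl19, Rpl27a, Rpl41 and Rps4x. They make up 7 of the 46 that rose at 4 weeks, 7 of the 12 after running and 7 of the 19 at 18 months. That is 9.59% of the 73 members tested in both tables, beside 11% of the 14139 genes tested in both (1550 genes). Of the 19 at 18 months 17 had risen at 4 weeks (89.5%), beside 59.8% of all genes that rose at 18 months. The other 2 included Rps6, whose rise at 18 months no longer passed in 12 of 16 alternatives. In 25 of the 73 members (34.2%) no stage gave a rise, beside 62.2% of all genes, among them Rplp0, Rplp1, Rplp2, Rpl4, Rpl5, Rpl7, Rps2 and Rps27.

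The change of the genotype difference with age was tested over the 18 sedentary libraries. The delEx44 minus WT difference was lower at 18 months than at 4 weeks in 6 members and higher in none, against 3.91% and 7.02% of all genes, at a median of -0.18. Among the 6 were Rps20, Rps25, Rpl13a, Rps29 and Rpl36. The count was 10 with DESeq2 size factors, 15 with DESeq2 and 1 without a filter on low counts. Leaving out 1 library moved it in most cases: at 4 weeks to 2 (WT replicate 1), 12 (WT replicate 3), and 1, 16 and 2 (delEx44 replicates 1, 2 and 3), and at 18 months to 2 (WT replicate 2 or 3), 3 (delEx44 replicate 1 or 2) and 1 (delEx44 replicate 3). Rps20, a small-subunit protein, was at 104, 117 and 116 CPM in WT, 169, 136 and 157 in delEx44, with 117, 121 and 114 in corrected muscle at 4 weeks, where delEx44 stood apart. At 18 months Rps20 was at 115, 126 and 114 CPM in WT, 114, 112 and 117 in delEx44, with 115, 120 and 114 in corrected muscle, all overlapping. Its interaction was -0.52 (adjusted p = 0.0034). For Rpl3 it was -0.02 (adjusted p = 0.97) and for Rpl3l 0.14 (adjusted p = 0.50).

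The difference of corrected and delEx44 also changed with age: 17 of 74 members had a positive interaction and none a negative one, against 7.75% and 8.12% of all genes, at a median of 0.24. In 16 of the 17 the difference was nearer to 0 at 18 months than at 4 weeks, and in Rpl15 it was farther, at 0.30 after -0.02. Leaving out a 4-week library gave 5, 32 and 8 (delEx44 replicates 1, 2 and 3) or 6, 7 and 8 (corrected replicates 1, 2 and 3), and an 18-month library 6 and 10 (delEx44 replicates 2 and 3) or 7 (corrected replicate 1). Rps20 had 0.45 (adjusted p = 0.0076), Rpl36a 0.44 (adjusted p = 0.0061), Rpl38 0.36 (adjusted p = 0.028) and Rpl15 0.35 (adjusted p = 0.014). Rpl36a, an X-linked gene whose protein lies at the tRNA exit site, was at 89.1, 79.0 and 87.4 CPM in delEx44, with 62.2, 60.8 and 61.9 in corrected muscle at 4 weeks, and 54.2, 48.2 and 51.9 against 49.6, 48.5 and 50.7 at 18 months. The 2 interactions share the delEx44 libraries. Age came with another table and sequencing run, and for corrected mice with other vector doses, and these cannot be told apart.

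Between the run groups at 8 weeks and the sedentary groups at 4 weeks, these genes were compared within each genotype. In corrected mice 26 of 74 members were higher and none lower, against 12.3% and 13.5% of all genes, at a median of 0.19. In WT 12 were higher and 6 lower, against 13.4% and 14.2%, at a median of -0.01. In delEx44 4 were higher and 12 lower, against 16.4% and 19.3%, at a median of -0.06. In corrected mice the small subunit had 16 of 30 higher at a median of 0.31, the large subunit 10 of 44 at a median of 0.13. Running and the step from 4 to 8 weeks came together in each genotype and cannot be told apart.

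Rpl38, which is known for its part in translating Hox mRNAs, was at 29.7, 34.0 and 36.1 CPM in sedentary WT and 46.7 and 46.6 in run WT. In corrected mice Rpl38 went from 33.4, 30.5 and 31.6 CPM to 53.4 and 48.7. It rose by 0.49 in WT (adjusted p = 0.0019) and by 0.68 in corrected mice (adjusted p = 0.00034), without overlap in either, while the value in delEx44 was 0.15 (adjusted p = 0.20). Rplp2 rose by 0.43 in WT and 0.69 in corrected mice, and Rps10 by 0.49 and 0.52. Rpl36 and Rps21 were higher in all 3 genotypes; for Rps21 the rises were 0.49 in WT, 0.38 in delEx44 and 0.66 in corrected mice. Rpl3, Rpl7, Rpl23, Rps7 and Rps27a were lower in both WT and delEx44. Rpl3 fell by 0.38 in WT (adjusted p = 0.047, 0.011 to 0.28 over the alternatives), and Rpl41 fell by 0.49 in delEx44, from 194, 175 and 187 to 139 and 124 CPM.

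The length of the transcripts moved with these values. Of the 76 members 50 have a transcript under 1000 bases. These lengths are of 1 annotated transcript per gene, chosen by rule, and some are long for a ribosomal protein, with 5179 bases for Rps15a and 3706 for Rps20. The chosen transcript need not be the main one, which limits the values by length below. Across the 74 members tested, Spearman's correlation of the fold change with length was -0.34 in WT, -0.19 in delEx44 and -0.40 in corrected mice, given as a description over genes that share libraries. The 942 other genes under 1000 bases had medians of 0.10, 0.04 and 0.21, and 16.1%, 18% and 22.1% of them were higher. With the length trend of all genes taken out, 12 members were higher and 4 lower in corrected mice (median 0.05), 9 and 18 in WT, and 5 and 22 in delEx44. With library totals alone the values were 14 and 0 in WT, 0 and 33 in delEx44. Single mice moved the counts too. Without corrected run replicate 1 the 26 became 8, at a median of 0.10. In WT 18 calls became 7 without sedentary replicate 2, 5 without run replicate 1 and 6 without run replicate 2. In delEx44 16 became 6 without sedentary replicate 1, 8 without sedentary replicate 3, 7 without run replicate 1 and 6 without run replicate 2.

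**Figure D4:**
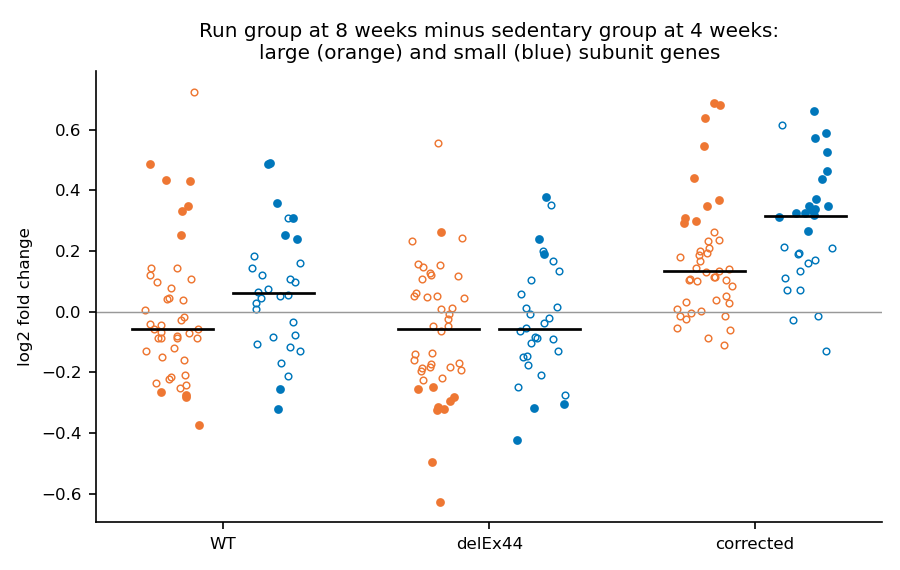
Log2 fold change of each ribosomal protein gene between the run group at 8 weeks and the sedentary group at 4 weeks, by genotype and subunit; filled points passed the test and bars are medians. In corrected mice the small-subunit median is 0.31 and the large-subunit median 0.13, and in delEx44 both are -0.06.

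The change of the genotype difference with running gave 0 members in edgeR's quasi-likelihood test. For delEx44 against WT the median interaction was -0.08 (0.586% of all genes higher and 0.293% lower), 3 members were under 0.05 before adjustment and DESeq2 called 0, while 7 were lower with library totals alone. For corrected against delEx44 the median was 0.27 with 73 of 74 positive (0.406% of all genes higher and 1.01% lower). There 35 members were under 0.05 before adjustment, DESeq2 called 10 and library totals alone gave 29, all higher, and 4 were called without sedentary delEx44 replicate 2. Rps20 was nearest to the threshold, at 0.60 (adjusted p = 0.055), with Rpl38 at 0.53 (adjusted p = 0.06).

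Of the paralogues of members, Rpl22l1, Rps27l and Rpl36al did not follow the set. Rpl22l1, the paralogue of Rpl22, was at 42.1, 53.0 and 55.6 CPM in WT, 38.1, 28.4 and 36.8 in delEx44, with 57.0, 51.2 and 47.5 in corrected muscle at 18 months. Its delEx44 libraries lay below all others; it fell by 0.54 in delEx44 (adjusted p = 0.0075) and rose by 0.59 in corrected against delEx44 (adjusted p = 0.0065), while Rpl22 itself was at 0.03. Rps27l, a p53 target, fell by 0.33 after running (adjusted p = 0.019) and by 0.34 at 18 months (adjusted p = 0.0015), and was at 0.00 at 4 weeks. Rpl36al fell by 0.35 at 18 months and rose by 0.31 in corrected against delEx44. Rps4l, listed here beside Rps4x, is annotated in GENCODE as a transcribed processed pseudogene and had a low level. At 18 months it was at 2.32, 2.03 and 2.32 CPM in WT, 2.84, 3.2 and 2.96 in delEx44, with 1.54, 1.88 and 1.5 in corrected muscle. Its fold change was 0.44 in delEx44 against WT (adjusted p = 0.042) and -0.87 in corrected against delEx44 (adjusted p = 0.0022). The former no longer passed in 12 of 16 alternatives. Rpl7l1 and Rpl39l passed in none of the 9 comparisons of genotypes, but Rpl7l1 was lower in the run than in the 4-week groups, by 0.27 in WT (adjusted p = 0.0082), 0.36 in delEx44 (adjusted p = 0.0013) and 0.20 in corrected mice (adjusted p = 0.04). Rpl10l, a testis paralogue, had no count in the first table but was among the 8 paralogues tested at 18 months. Why the tables differ in it was not tested.

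Of 4 ribosomal protein genes outside the name rule 3 rose in delEx44 at 4 weeks, where 25.2% of all genes did: Fau, Gnb2l1 (the scaffold also called Rack1) and Rps3a1. Fau, whose product carries Rps30, stood at 46.1, 46.7 and 54.0 CPM in WT, 78.0, 66.8 and 71.8 in delEx44, with 50.1, 53.1 and 49.3 in corrected muscle, a rise of 0.56 (adjusted p = 9.8e-05) without overlap and a fall of 0.51 in corrected mice. Fau rose by 0.30 after running (adjusted p = 0.036) and was at 0.18 at 18 months (adjusted p = 0.067), where 0 of the 4 passed.

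The mitochondrial ribosome, which translates the genes of the mitochondrial genome, went the other way. Of 76 mitochondrial ribosomal protein genes 44 fell and 0 rose in delEx44 against WT at 4 weeks, where 25.0% of all genes fell, at a median of -0.21. After running 24 fell (14.2% of all genes) and at 18 months 48 (23.8%), with 0 higher at both and medians of -0.19 and -0.24. In corrected against delEx44 36 rose at 4 weeks (22.1% of all genes), 46 after running (10.8%) and 36 at 18 months (19.6%), where 1 fell, at medians of 0.19, 0.32 and 0.20. Mrpl16 was at -0.55 in delEx44 at 4 weeks (adjusted p = 6.4e-05) and at 0.54 in corrected against delEx44. After running, the comparison of corrected and delEx44 thus had 46 of 76 mitochondrial genes higher and 1 of 74 cytosolic ones lower.

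**Figure D5:**
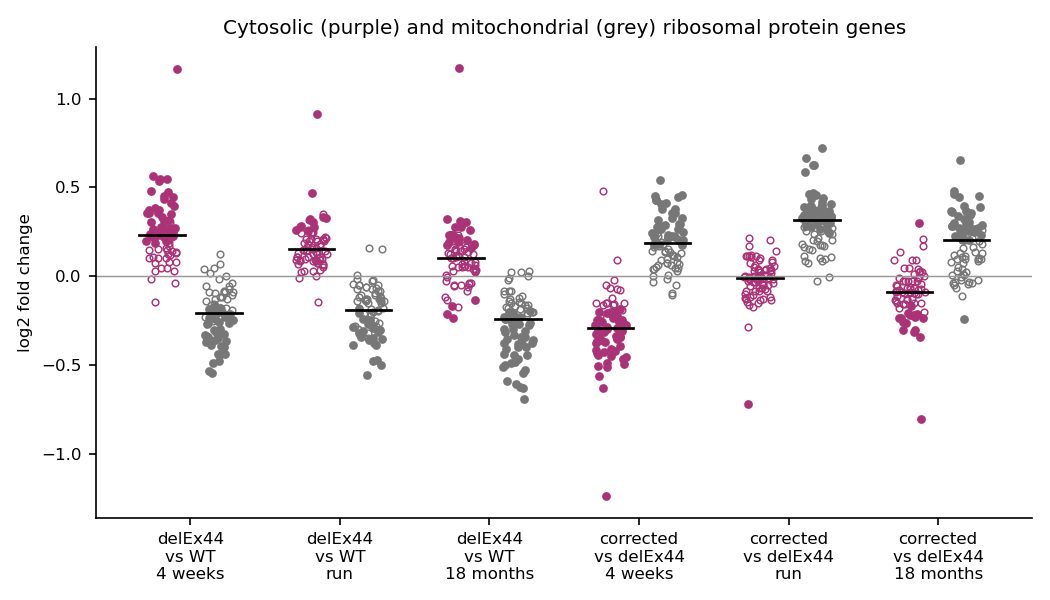
Log2 fold change of cytosolic (purple) and mitochondrial (grey) ribosomal protein genes in 6 comparisons; filled points passed the test and bars are medians. In delEx44 against WT the cytosolic medians are 0.23, 0.15 and 0.10 and the mitochondrial ones -0.21, -0.19 and -0.24; the 3 right-hand comparisons use the same delEx44 libraries as the 3 on the left.

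Other TOP mRNAs did not move as 1 group in delEx44 against WT, while genes of ribosome assembly and growth control fell more often than they rose. Of 22 TOP mRNAs that encode no ribosomal protein 7 rose and 4 fell in delEx44 against WT at 4 weeks, 5 and 1 after running and 5 and 4 at 18 months, at medians of -0.03, 0.04 and -0.04. Of all genes 25.2% rose and 25.0% fell at 4 weeks, 14.9% and 14.2% after running, and 28.8% and 23.8% at 18 months. The counts of these TOP mRNAs thus lie near the background. Eef1a1, the elongation factor, was at 452, 520 and 594 CPM in WT, 1296, 1004 and 1069 in delEx44, with 486, 548 and 468 in corrected muscle at 4 weeks, a rise of 1.10 (adjusted p = 7e-06) without overlap. It rose by 1.07 after running and 1.32 at 18 months, and its muscle paralogue Eef1a2 fell by 0.76, was at -0.21 (adjusted p = 0.16) and fell by 0.42. Naca, which has a muscle isoform, fell by 0.48, 0.33 and 0.72, and Npm1 rose by 0.50 at 4 weeks. Of 41 ribosome assembly genes 5 rose and 14 fell at 4 weeks, 0 and 16 after running, and 6 and 13 at 18 months. Their medians were -0.07, -0.22 and -0.08, and 8 of 41 were positive after running, where the list leaned lower most clearly. Nop58, of the box C/D particles, rose by 0.44 at 4 weeks, and Rrn3, an initiation factor of RNA polymerase I, fell by 0.57. Of 17 genes of growth control 1 rose and 9 fell at 4 weeks, with Akt1 up by 0.35 and Tsc1, an inhibitor of mTORC1, down by 0.56. The counts were 1 and 4 after running, and 2 and 9 of 16 tested at 18 months. The medians of this list were -0.25 at 4 weeks, -0.20 after running and -0.29 at 18 months.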

How the data were processed

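The authors deposited raw counts of reads by gene, 1 table with the 15 libraries of the 4-week and run groups and 1 with the 9 libraries at 18 months. The submitters' processing notes name mm10, HTSeq, STAR 2.7.2b, edgeR, Bowtie2 2.3.4.3, SAMtools 1.9 and Trim Galore. The sources used here do not say which aligner led to the counts, nor the annotation or strand setting, so overlapping or antisense genes cannot be separated. Per the labels, quadriceps was frozen and libraries were made with a TruSeq RNA kit. The 5 records that name no gene were dropped, which was 27.4% to 34.2% of a library's records in the first table, and 42.2% to 48.3% for the 18-month mice. At 18 months the names of 2 of 3 WT columns also match run samples, so these were tied to their group and are numbered by their own names.

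Counts were fitted with edgeR 4.0.16 in R 4.3.3: filterByExpr, TMM factors, 1 mean per group, robust quasi-likelihood test, Benjamini-Hochberg adjustment over all genes tested and a threshold of 0.05. The first table gave 1 fit (15013 genes), 18 months another (14337) and the 18 sedentary libraries the last (14937 genes), for age interactions; there were 16 comparisons. CPM were computed from the counts with TMM factors, and log2 fold changes with SE come from the fit. Levels carry counting error and the spread between mice. Members, lists, motifs and tests were chosen with earlier results of these data known. Named in each comparison were a fixed set (Rpl3, Rpl3l, stalk genes, members with known roles, paralogues), the 3 called members with the smallest p in each direction and the extremes, and of each other list those with the smallest p; Rps2, Rpl4, Rps18 and other genes beyond it, given for comparison, were chosen after their values were seen. A few genes that these rules pick are not reported here. Lengths and positions come from GENCODE vM21 (GRCm38), with all but 424 of 24062 symbols matched, and starts from RefSeq. Each length, also in levels per kilobase, is that of 1 transcript per gene chosen by rule, which need not be the main one. Alternatives were other scalings, filters, DESeq2 1.42.0, a length offset, fits of 2 groups, a replicate block (over all 9 libraries at 18 months it was added after seeing the data) and leaving out each library. The tests were tried on simulated counts. Among 21 pairs of replicates none agreed within sampling noise, with a chi-square per degree of freedom of 9.06 to 105. The highest value was that of WT replicates 1 and 2 at 18 months, the 2 columns tied only to their group. The next, 46, was that of WT replicates 1 and 3 at 18 months.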

Additional observations from a re-analysis of the deposited data

Results flagged for a closer look

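These differences between ages were larger than the test's threshold; each is the interaction of age, 18 months against 4 weeks, with a genotype difference, on the log2 scale, with adjusted p from edgeR's quasi-likelihood test. For delEx44 against WT, 6 members passed: Rps20 at -0.52 (adjusted p = 0.0034), Rps25 at -0.38 (adjusted p = 0.02), Rpl13a at -0.36 (adjusted p = 0.041) and Rps29 at -0.33 (adjusted p = 0.027) are among them, and the paralogue Rps27l, outside the name rule, was at -0.37 (adjusted p = 0.014). Of 20 alternatives, Rpl13a no longer passed in 12, Rps29 in 8, Rps25 in 5, Rps27l in 1 and Rps20 in 0. For corrected against delEx44, 17 members passed, among them Rps20 at 0.45 (adjusted p = 0.0076), Rpl36a at 0.44 (adjusted p = 0.0061), Rpl38 at 0.36 (adjusted p = 0.028) and Rpl15 at 0.35 (adjusted p = 0.014), and the paralogue Rpl22l1 was at 0.56 (adjusted p = 0.037). Rps25, a small-subunit protein used by some viral internal ribosome entry sites, was at 92.0, 106 and 109 CPM in WT and 124, 110 and 126 in delEx44 at 4 weeks, and at 121, 122 and 133 in WT and 121, 110 and 113 in delEx44 at 18 months. The delEx44 libraries of Rps25 were thus the higher ones at 4 weeks and the lower ones at 18 months.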

How the results depend on the processing

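The values below are counts of members called in either direction. With library totals alone they were 72 in delEx44 against WT at 4 weeks, 33 after running and 66 at 18 months; in corrected against delEx44 3 after running and 66 at 18 months; 33 for the run and 4-week groups of delEx44; 7 and 29 for the interactions of running with delEx44 against WT and with corrected against delEx44; and 7 for the interaction of age with corrected against delEx44. With the length trend as an offset they were 23 in delEx44 against WT after running, 9 in corrected against delEx44 after running, 27 and 16 for run against 4 weeks in delEx44 and corrected mice, 15 and 10 in delEx44 against WT and corrected against delEx44 at 18 months, 2 in corrected against WT at 18 months, and 11 and 30 for the interactions of age. DESeq2 gave 2 in corrected against delEx44 after running, 10 for the interaction of running with it, 5 in corrected against WT at 18 months and 15 for age with delEx44 against WT. That last count was 12 with upper-quartile factors and 10 with DESeq2 size factors. Upper-quartile factors, and at least 10 counts in every library, each gave 1 for running with corrected against delEx44. Without a filter there was 1 in corrected against WT at 18 months, and 1 and 2 for the interactions of age. Fits of only 2 groups gave 3 in delEx44 against WT after running and 4 for run against 4 weeks in delEx44.

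With 1 library left out at a time, the counts were 26 to 54 (delEx44 against WT), 42 to 62 (corrected against delEx44) and 0 to 0 (corrected against WT) at 4 weeks, 2 to 7, 1 to 2 and 0 to 0 after running, and 9 to 21, 9 to 15 and 0 to 2 at 18 months. For run against 4 weeks they were 5 to 17 in WT, 6 to 23 in delEx44 and 8 to 27 in corrected mice. For the interactions they were 0 to 0 and 0 to 4 with running, and 1 to 16 and 5 to 32 with age.

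Signs changed for Rpl15 (0.071), Rpl4 (0.138) and Rpl24 (0.0939) in delEx44 against WT at 18 months with library totals alone, for Rpl3 in corrected against WT at 4 weeks (0.0264 without WT replicate 3 and 0.006 without corrected replicate 3; -0.188 to 0.0264 over the libraries left out), and for the interaction of age with delEx44 against WT of Rpl3 (0.0362 without a filter, and 0.0972 to -0.116 over the libraries left out, above 0 without WT or delEx44 replicate 1 at 4 weeks and WT or delEx44 replicate 2 at 18 months). The cause was not tested for these changes. In all, 1624 of 1891 alternative values of the 122 named results kept direction and side of the threshold, 245 no longer passed, 12 newly passed and 10 changed sign. Of 251 alternative medians 223 stayed within 1 SD. With 1 library left out, medians on both sides of 0 came for corrected against delEx44 after running (-0.0928 to 0.0647), corrected against WT at 18 months (-0.0194 to 0.0113) and run against 4 weeks in WT (-0.0773 to 0.0468).

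With the replicate number as a block, corrected against delEx44 at 18 months gave 11 calls, 1 higher and 10 lower, in place of 17. With the block over all 9 libraries, chosen after seeing the data and with 2 WT columns numbered by their own names, the counts were 16 in delEx44 against WT, 14 in corrected against delEx44 and 0 in corrected against WT, and 5 named genes no longer passed, among them Rpl4 and Rpl24. Same-numbered samples correlated at -0.138 to 0.0867 and others at -0.206 to 0.175, so no pairing by number was seen. With so few pairs these ranges cannot exclude one. No paired analysis was made in the first table, because its sample names give no pairing of mice between groups. The 2 run mice per group, the reads lost to copies of these genes and the tie of running and age to other differences limit every comparison above.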
